A study of Mus musculus with 2 samples.

Results

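Translation initiation and elongation factors load messenger RNA onto the ribosome and move it along, and they were compared between wild-type and PERK knockout islets. The set held every gene whose only platform gene symbol begins with Eef or Eif and a number from 1 to 6. The eIF2 kinases Eif2ak1 to Eif2ak4, Eif4ebp1, Eif2s3x and Eif2s3y were left out by the rule and are given below as related genes. It comprised 45 genes, represented by 102 probe sets, of 12393 genes in all.

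Pancreatic islets were taken 2 days after birth from wild-type and PERK knockout mice and released with collagenase P. Biotin-labelled cRNA was hybridised to Affymetrix mouse 430A arrays, 1 for each genotype. The wild-type animals were of mixed strain and of both sexes, per the labels, and strain and sex of the knockout animals, their allele and any pooling of pups are not stated there. There was thus no replicate of either genotype, no test was possible, and every ratio below compares 2 RNA preparations.

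PERK, the product of Eif2ak3, phosphorylates the alpha subunit of eIF2, the factor that brings the initiator tRNA to the small ribosomal subunit. Phosphorylated eIF2 blocks its own exchange factor eIF2B, and initiation then slows on most messages. Secretory cells such as beta cells carry a heavy load of protein synthesis, and mice without PERK are known to lose beta cells and become diabetic. The regulation acts on the protein, and only transcript levels were measured here.

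The deposited signals are linear intensities in arbitrary units. Each gene was read from its probe set with the highest mean signal, and a gene above a floor of 39.8, the 40th percentile of both arrays together, was called measured. Of the 45 genes, 42 were measured on both arrays, Eef2k was above the floor in the wild type only, and Eef1aknmt and Eef2kmt were at the floor on both. The error quoted is how far the 2 brightest measured probe sets of a gene disagree, an SD of 0.26 on the log2 scale over 2597 genes. It leaves out differences between animals, litters and RNA preparations.

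No translation factor differed by as much as 1.5-fold between the genotypes. At that limit 0 of the 42 measured factors were higher and 0 were lower in the knockout, where 4.19% of all 8133 measured genes were higher and 2.95% lower. The largest difference was that of Eef1e1, 1.43-fold higher. Together with Eif2b1 and Eif4b, also higher, and Eif4enif1, which was lower, it formed the 4 members at least 1.3-fold apart. At this limit, chosen after the values were seen, 3 of 42 members were higher and 1 was lower, against 12.3% and 8.3% of all measured genes. At 2-fold the members again numbered 0 in each direction, against 0.516% of all measured genes higher and 0.652% lower.

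The measured part of the family sat at equality as a whole. The median of its log2 ratios (knockout over wild type) was 0.02, against 0.03 over all measured genes, and its middle values ran from -0.11 to 0.17 at the quartiles, against -0.15 to 0.23. A total of 17 of the 42 lay below equality, 40.5% of them, where the share among all measured genes was 45.1%. That split depended on the scaling: 24 lay below equality with median centring and 22 with quantile or loess normalisation, with 50.8%, 49.7% and 50.5% of all measured genes below. The log2 ratios of the members had an SD of 0.20, and those of all measured genes one of 0.33. Of the members, 78.6% lay within 0.26 of equality, and of all measured genes 63.1%.

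Most of the factors gave bright signals, and bright genes spread less on these arrays. When the measured genes were divided into 4 classes of equal size by mean signal, 30 of the 42 members fell into the brightest class (signals of 326.9 and above), 9 into the next, 2 into the one after and 1, Eif5b, into the dimmest. In the brightest class 1.48% of genes were at least 1.5-fold higher and 2.66% lower, and the members there again numbered 0. Below equality were 13 of the 30 members and 55.6% of all genes in that class. The SD of the log2 ratios in that class was 0.29 over 2033 genes and 0.16 over the 30 members. In the next class it was 0.32 over all genes and 0.33 over the 9 members.

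**Figure D1:**
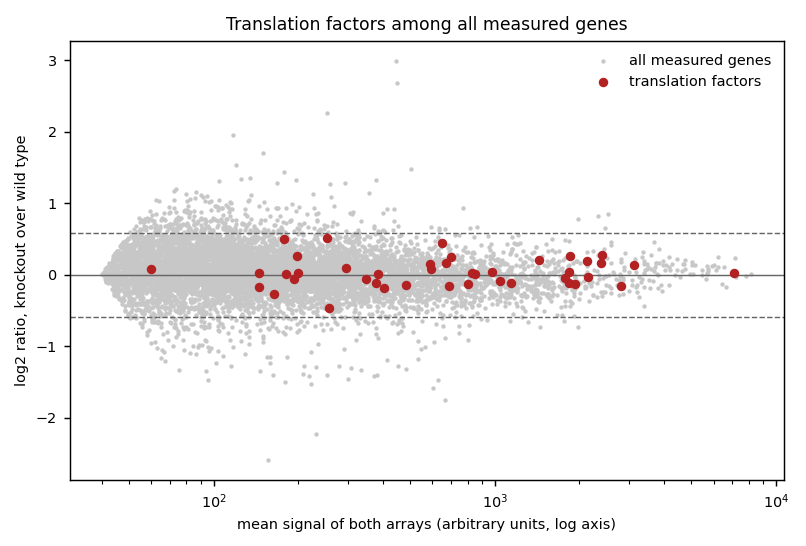
Log2 signal ratio, knockout over wild type, against the mean signal of both arrays (log axis) for all 8133 measured genes (grey) and the 42 measured translation factors (red), with dashed lines at 1.5-fold. Every factor lies between the dashed lines, and 30 of them are in the brightest of 4 classes of genes.

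Several factors were read by more than 1 probe set. Over the 21 factors with at least 2 measured probe sets, the probe set SD was 0.13, against 0.19 among the 650 genes with the brightest pairs. Only the 2 brightest measured probe sets of each gene enter this SD, and dimmer ones can lie further apart. All measured probe sets lay on the same side of equality for 13 of the 21, with 9 higher and 4 lower. The other 8 had probe sets on both sides, and for the 21 factors with a single measured probe set there was no such check. The 2 brightest probe sets lay on the same side for 66.7% of the factors that had 2. This compares with 61.2% of all 2597 such genes and 65.5% of the 650. Of the 82 measured probe sets of the family, 1 was at least 1.5-fold apart, and it belonged to Eif2s2.

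eIF2 itself is a trimer, and its beta subunit Eif2s2 was its only member with a value. The gene of the alpha subunit that PERK phosphorylates, Eif2s1, had no probe set with it as the only symbol. It was therefore not read. The same held for Eif2b3, Eif4g1, Eif1, Eef1g and Eif3g. For Eif2s2, 5 probe sets were measured. Its brightest probe set went from 1187 in the wild type to 1096 in the knockout, a log2 ratio of -0.11. The 4 other measured probe sets lay above equality, at log2 0.04, 0.12, 0.29 and 0.81, the last from 371.6 to 650.8, or 1.75-fold higher. The probe sets thus did not settle a direction for Eif2s2, and their median was 0.12. Among the related genes, the gamma subunit gene Eif2s3x went from 440.5 to 485.0 (log2 0.14, with 0.12 on its other probe set). Its Y-linked copy Eif2s3y went from 103.2 to 69.9 (1.48-fold lower), and the number of male pups in each preparation is not stated.

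eIF2B exchanges GDP for GTP on eIF2 and is the complex that phosphorylated eIF2 inhibits. Eif2b1, its alpha subunit, which belongs to the regulatory part that senses the phosphate, went from 146.8 in the wild type to 207.9 in the knockout, 1.42-fold higher (log2 0.50) on its only probe set. The beta subunit Eif2b2, also of the regulatory part, went from 636.8 to 760.9 (1.20-fold, log2 0.26), and its 2 other probe sets gave 0.05 and 0.17. Both were higher on every probe set and in every setting run. The delta subunit Eif2b4, which belongs to the regulatory part as well, was nearly level, at 355.9 and 341.1 (log2 -0.06). So was the catalytic epsilon subunit Eif2b5, at 180.9 and 182.2 (log2 0.01, turning to between -0.02 and -0.03 with median centring, quantile or loess normalisation). The median of the 4 measured subunits was 0.13, and 0.03 without probe sets that can share sequence with other genes, since Eif2b2 was then read from a dimmer one.

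Eif2d, which can deliver initiator tRNA without eIF2, went from 196.6 to 188.8 (log2 -0.06). Its other 2 measured probe sets were lower as well, at -0.40 and -0.15.

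eIF1 and eIF1A hold the scanning ribosome open until the start codon is found. Eif1a was 1.20-fold higher, from 180.0 to 216.3 (log2 0.27, with 0.11 on its second probe set), and its X-linked relative Eif1ax was lower, from 394.3 to 364.5 (log2 -0.11). Eif1b, a close relative of eIF1, went from 576.3 to 607.6 (log2 0.08). Eif1a and Eif1ax are near-identical in sequence, and the probe sets of Eif1a are of types that can also detect related transcripts, so the share of each gene in these signals is uncertain.

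eIF3, the largest initiation factor, is the scaffold on which the initiation complex assembles on the small subunit. Of its 11 measured subunits 8 were above and 3 below equality, with a median of 0.05. Below equality lay 45.1% of all measured genes, and 55.6% of those in the brightest class. With median centring 6 subunits were above and 5 below, against 50.8% of all measured genes below. The highest subunit was Eif3f, from 2169 to 2639 (1.22-fold, log2 0.28), and the lowest Eif3d, a cap-binding subunit, from 842.1 to 769.3 (log2 -0.13).

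The subunits of eIF3 form an octamer core, made of a, c, e, f, h, k, l and m, to which b, d, g, i and j attach. This grouping was made after the values were seen and carries no test. Of the 8 core subunits 7 were above equality, with a median of 0.16, or 1.12-fold. As given above, 45.1% of all measured genes lay below equality, and 55.6% in the brightest class. The remaining 3 measured subunits, b, d and i, had a median of -0.03. Eif3k went from 1330.2 to 1538 (log2 0.21), Eif3e from 2237 to 2522 (log2 0.17) and Eif3m from 633.0 to 712.8 (log2 0.17). Eif3a, the largest subunit, went from 556.9 to 619.2 (log2 0.15). All 3 measured probe sets of Eif3a lay between 0.15 and 0.19, and those of Eif3e between 0.17 and 0.33. Eif3h and Eif3c were close to level at 0.05 and 0.03, and Eif3c turned to -0.01 with median centring. Eif3l was the core subunit below equality, from 1072 to 1009 (log2 -0.09). The core median lay between 0.13 and 0.18 in the 10 alternative settings. With no scaling and with either of the other floors it stayed at 0.16, since these leave the ratios as they are. Every one of these differences was near or under the probe set SD of 0.26 when taken singly.

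eIF4F recruits the message by its cap: eIF4E binds the cap, eIF4G is the scaffold, and eIF4A is a helicase that unwinds the leader with the help of eIF4B and eIF4H. Eif4b was the only one of the 4 members at least 1.3-fold apart that was read by more than 1 measured probe set, and all 3 were higher in the knockout. They went from 549.4 to 750.0, from 450.3 to 643.0 and from 168.7 to 226.7, which are log2 ratios of 0.45, 0.51 and 0.43. The brightest was 1.37-fold higher. In the 10 alternative settings the log2 ratio of Eif4b lay between 0.41 and 0.51.

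Among the cap-binding proteins, Eif4e and Eif4e2 were lower on their brightest probe sets, by less than the probe set SD of 0.26, and Eif4e3 was not. Eif4e went from 430.9 to 378.3 (log2 -0.19, with -0.34 on its second measured probe set). Eif4e2, a cap-binding repressor of translation, went from 508.0 to 461.9 (log2 -0.14), and its other measured probe sets gave -0.27 and -0.56. In each gene a further probe set was above the floor in the knockout only, from 31.6 to 51.7 for Eif4e and from 38.5 to 43.9 for Eif4e2, which is the opposite direction at the dim end. The third relative, Eif4e3, was level on its brightest probe set (198.0 and 202.1, log2 0.03, turning to -0.01 with median centring or quantile normalisation and to just under equality with loess) and at 0.33 on the other.

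The scaffold Eif4g2, an eIF4G relative that does not bind eIF4E, went from 1809 to 1755 (log2 -0.04), and its other measured probe sets gave -0.16 and -0.22. Eif4g3 went from 285.7 to 304.8 (log2 0.09). The helicase genes differed in direction: Eif4a1 went from 1912 to 1767 (log2 -0.11, with 0.02 and 0.04 on its others) and Eif4a2 from 1989 to 2280.2 (log2 0.20, a single probe set). Eif4h went from 2012 to 1848 (log2 -0.12), and its others lay at 0.09 and -0.32. The median of the 9 measured genes was -0.04, and 0.02 when taken over all measured probe sets of each gene.

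Eif4enif1 was the lowest of all 42 measured members. It encodes the eIF4E transporter 4E-T, which carries eIF4E into the nucleus and to processing bodies. The signal went from 298.0 to 215.9, 1.38-fold lower (log2 -0.46), on its only probe set, and lay between -0.50 and -0.41 in the 9 alternative settings that could read it. Eif4ebp2, which holds eIF4E away from eIF4G until mTORC1 phosphorylates it, was level at 144.0 and 146.8 (log2 0.03, and -0.01 to -0.03 with median centring, quantile or loess normalisation). Its 2 dimmer measured probe sets gave 0.24 and 0.47. Its sister gene Eif4ebp1, a known ATF4 target outside the rule, went from 231.4 to 238.7 (log2 0.04, with 0.41 on its other probe set).

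**Figure D2:**
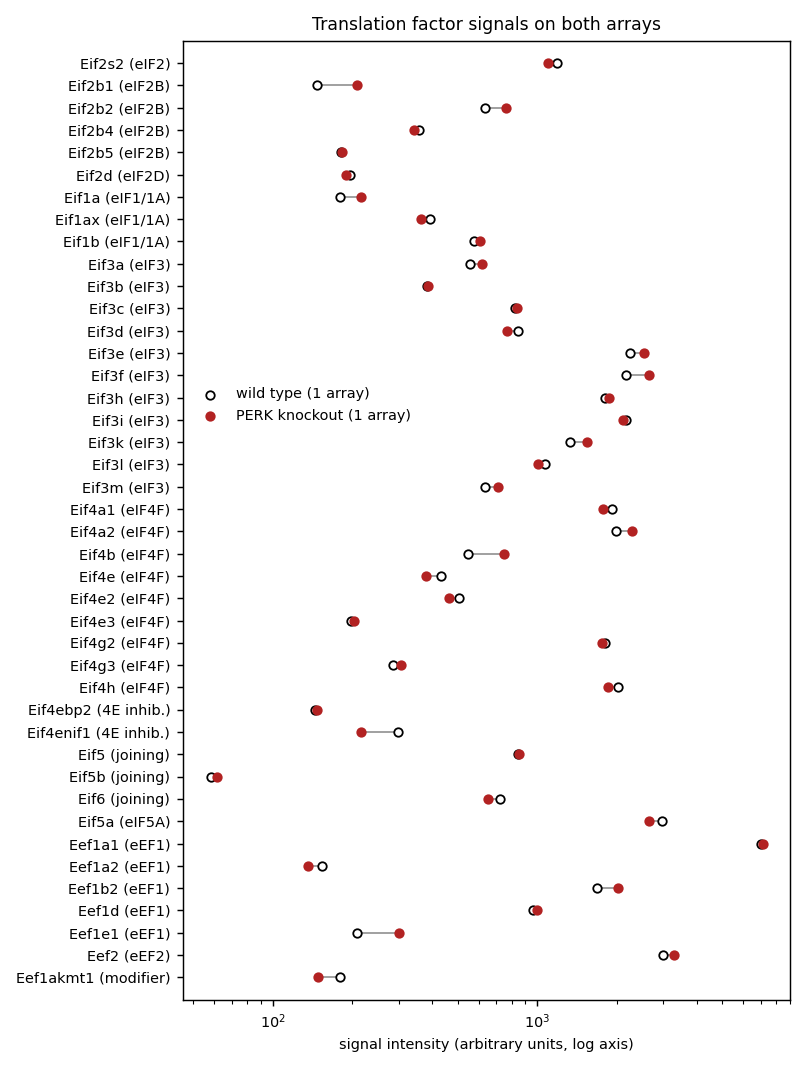
Signal intensity (log axis) of each measured translation factor on its probe set with the highest mean signal, in wild type (open) and PERK knockout (red), 1 array each, ordered by factor complex. The widest gaps are those of Eif2b1, Eif4b and Eef1e1, higher in the knockout, and Eif4enif1, lower, and levels of different genes are not comparable because each has its own probes.

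Subunit joining closes initiation. Eif5, which triggers GTP hydrolysis by eIF2, was level at 843.7 and 852.6 (log2 0.02, and -0.02 with median centring), with its other probe sets between -0.14 and 0.28. Eif5b, which joins the large subunit, was dim, at 58.2 and 61.4 (log2 0.08, and -0.01 to -0.02 with loess or quantile normalisation). Eif6, which keeps the subunits apart, went from 724.2 to 653.0 (log2 -0.15).

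Elongation begins with eEF1A, which brings each aminoacyl-tRNA to the ribosome. Eef1a1, the general form, went from 7015 in the wild type to 7121 in the knockout (log2 0.02, and -0.01 to -0.05 with median centring, quantile or loess normalisation). These signals were 86.3% and 86.4% of the maximum of their arrays, where differences can be compressed. Eef1a2, the form of muscle and neurons, which islets also make, went from 153.7 to 136.3 (log2 -0.17).

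Of the exchange factors that recharge eEF1A with GTP, Eef1b2 went from 1684 to 2014 (1.20-fold, log2 0.26), and Eef1d from 964.6 to 996.5 (log2 0.05, with 0.13 on its second measured probe set). Eef1e1 had the highest ratio of all members, from 208.8 to 299.2 (log2 0.52) on its only probe set. Despite its symbol it is a part of the aminoacyl-tRNA synthetase complex, known as AIMP3 or p18, and not an exchange factor. Its log2 ratio lay between 0.46 and 0.52 in the 9 alternative settings that could read it.

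Eef2, which moves the ribosome by a codon, went from 2982 to 3291 (log2 0.14). Its inhibitory kinase Eef2k was dim, at 41.2 in the wild type and at the floor in the knockout, at least 1.04-fold lower. Eif5a, which keeps ribosomes moving through stalling sequences and is activated by hypusine, was 1.11-fold lower, from 2952 to 2650.3 (log2 -0.16), with 0.08 on its second probe set. The eEF1A methyltransferase gene Eef1akmt1 went from 179.2 to 148.5 (log2 -0.27), but its 3 other probe sets lay between -0.01 and 0.19. The 6 elongation factors other than Eef1e1 had a median of 0.03 and the 34 initiation factors and their regulators one of 0.02.

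**Figure D3:**
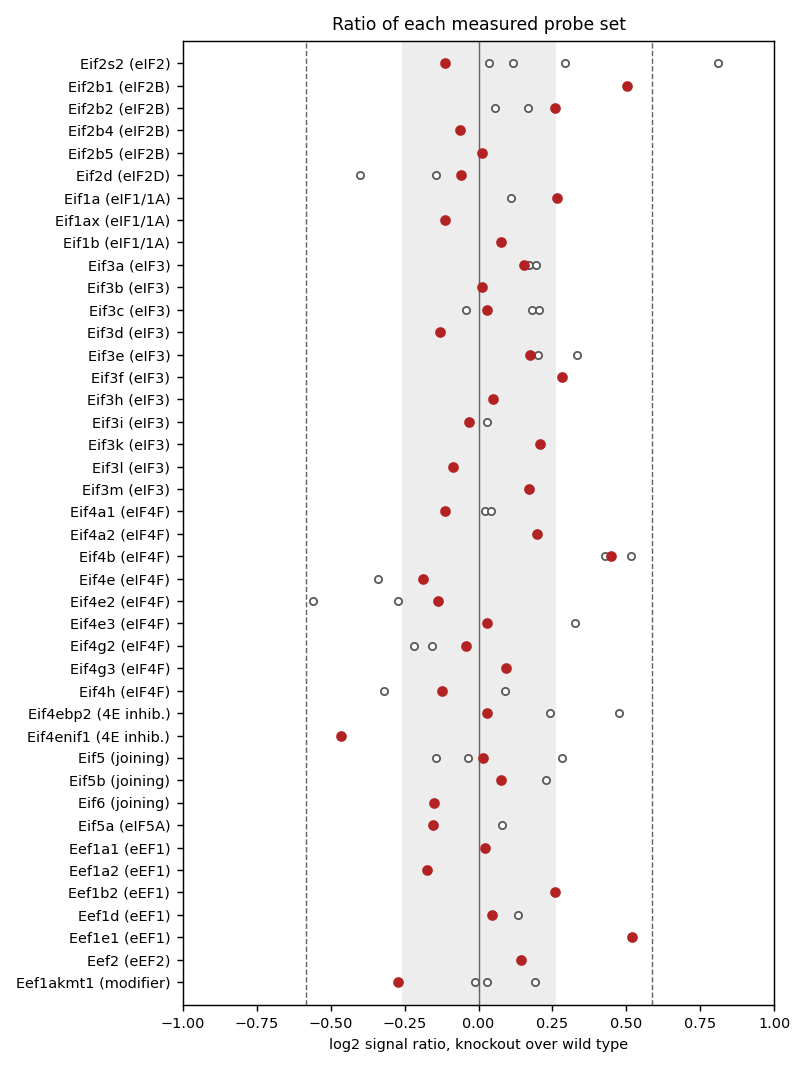
Log2 signal ratio, knockout over wild type, of the probe set with the highest mean signal (red) and of all other measured probe sets (open) of each measured factor. Grey marks the probe set SD of 0.26 on both sides of equality and dashed lines 1.5-fold; the probe sets of Eif4b lie together near 0.45, while those of Eif2s2 run from -0.11 to 0.81.

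Many messages of the translation apparatus are known to begin with a run of pyrimidines, the terminal oligopyrimidine tract, through which mTORC1 controls their translation. Ribosomal protein genes are the main class that carries it, and Eif3f and Eif4b are among the known factors of that class. RefSeq promoter windows (250 bases before to 50 after each annotated start, GRCm38.p6) were found for 36 of the 45 genes. Runs of at least 7 C or T on the gene's strand were sought, starting with C within 15 bases of an annotated start. Such a run was present in 12 of the 36 (33.3%), against 18.2% of all 27025 genes and 19.9% of the measured ones. The start used in islets was not measured, so a run found this way is a description of the letters there. Neither a run nor its absence here places a factor inside or outside the known class. The 3 longest runs and that of the known class member Eif4b follow, 5′ to 3′, with the run in capitals and at most 30 bases each.
Eif2b5, chr16:20498796-20498825, plus strand: cgcattCCTTCCTCTTTCTCTCCCTgcaac
Eif3f, chr7:108934405-108934434, plus strand: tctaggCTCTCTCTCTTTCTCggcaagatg
Eif3k, chr7:28981852-28981881, minus strand: aaagcgCCTTTCCCTTTgccttccttgtag
Eif4b, chr15:102073777-102073806, plus strand: gcgccaCCCCCTCgcgctgctttacgaacc

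The run of Eif2b5 was 19 bases long, that of Eif3f 15 and that of Eif3k 11, and that of Eif4b 7. The log2 ratios of these 4 factors ran from 0.01 for Eif2b5, whose sign turned with the scaling, to 0.45 for Eif4b. They were picked for printing and do not stand for all factors with a run. The 12 factors with a run had a median of 0.08, with 8 above equality and 4 below. Those below were Eif4enif1 (log2 -0.46), Eif4e (-0.19), Eef1a2 (-0.17) and Eif3l (-0.09). The 21 measured factors without a run had a median of 0.02, with 12 above. Over all measured genes the medians were 0.03 both with and without a run. Ribosomal protein genes, taken by symbol, had a median of 0.12 over 43 measured genes, with 36 above equality and 7 below. Of all measured genes 45.1% lay below equality, and 55.6% in the brightest class. The ribosomal list was not run under the alternative settings.

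ATF4, whose own translation rises when eIF2 is phosphorylated, binds with C/EBP partners to sites of the form TGATGCAA. On either strand this was found in 0 of the 36 promoter windows, where 1.03% of all genes and 0.757% of the measured ones held it. The looser TGATGNAA, which includes it, occurred in 1 member, Eef2k, or 2.78%, against 4.51% of all genes and 2.62% of the measured ones. The cyclic AMP response element TGACGTCA occurred in 1 member, Eef2, again 2.78%, against 2.03% of all genes and 3.66% of the measured ones.

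Other genes of translational control gave 1 gene at least 1.5-fold higher and 1 lower among 42 measured of 53 listed, where 4.19% of all measured genes were higher and 2.95% lower at that limit. The lower one was Eif2ak3 itself, from 117.7 to 58.7 (2.01-fold lower), the targeted gene. The higher one was Paip1, which bridges the poly(A)-binding protein and the cap complex, from 140.1 to 237.7 (1.70-fold), although its second probe set gave a log2 ratio of -0.07. Of 10 measured partners of the cap complex 9 were above equality, with a median of 0.11. Such counts are to be set beside the 45.1% of all measured genes, and 55.6% in the brightest class, that lay below. The poly(A)-binding protein gene Pabpc1 went from 2767 to 2991 (log2 0.11), named after its value was seen, like the other genes in the next paragraph.

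The 7 measured genes of mTORC1 signalling, the pathway that releases eIF4E, had a median of 0.35, with 6 above equality. The median was 0.29 with loess and 0.27 with the pseudocount. Apart from Rheb and Rps6 these genes were dim, with wild-type signals from 49.5 (Rps6kb2) to 123.7 (Mtor). The inhibitor Tsc2 had a log2 ratio of 0.48 and its partner Tsc1 of 0.35. The activator Rheb was at -0.26, and Mtor was at 0.25 (0.08 on its other probe set). No gene of this list was 1.5-fold apart. In termination and recycling the median was -0.16, and 5 of 6 genes lay below equality. Among them Etf1, the release factor, was at -0.18 (-0.66 and -0.12 on its others), and Abce1, the recycling ATPase, at -0.28 (-0.63 on its other). The 5 measured hypusine and diphthamide enzymes, which modify eIF5A and eEF2, had a median of -0.10. The 5 measured mitochondrial translation factors had a median of 0.04, with Tufm, the mitochondrial counterpart of eEF1A, at -0.46.

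**Figure D4:**
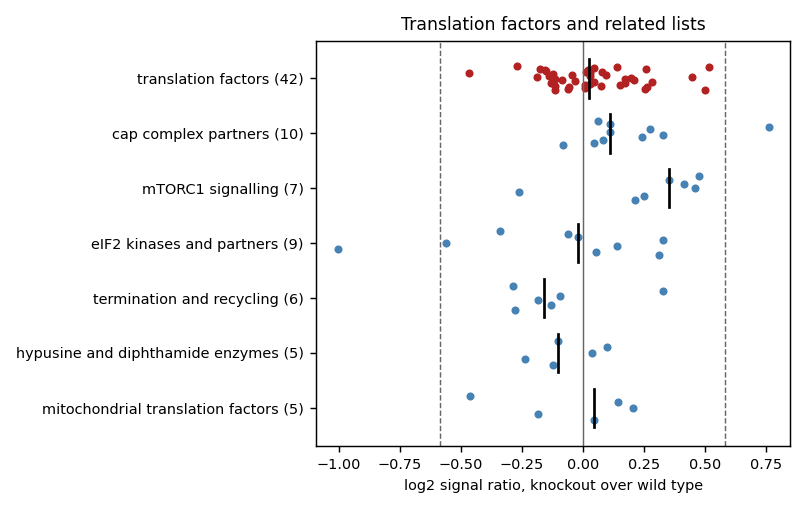
Log2 signal ratios, knockout over wild type, of the 42 measured translation factors (red) and of the measured genes of 6 related lists (blue, numbers in brackets), with a black bar at each median and dashed lines at 1.5-fold. Only Eif2ak3 and Paip1 of the related genes lie beyond the dashed lines, and the mTORC1 list has the highest median, 0.35.

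The islet label held on both arrays: the 9 hormone and granin genes with a probe set were all measured. Their summed signals were 48744 (wild type) and 51062 (knockout). Among these 9, Ghrl was 1.71-fold higher in the knockout, and no other was 1.5-fold apart. Acinar enzymes were also present on both, with sums of 46730 and 49151 over 14 genes. Of these 14, 3 were at least 1.5-fold higher and 0 lower, where 4.19% of all measured genes were higher and 2.95% lower. The 3 were Pla2g1b (1.90-fold), Ctrl (1.61-fold) and Zg16 (1.59-fold). Myeloid and immune markers were higher in the knockout in 14 of 14 measured genes, with sums over 17 genes of 1629 and 4533. Cell cycle markers were lower in 13 of 13, with sums of 5593 and 2861. Both counts are to be set beside the 45.1% of all measured genes that lay below equality. The summed signals of duct, endothelial, mesenchymal, nerve and red blood cell markers differed by at most 1.12-fold. Within these lists the duct marker Tspan8 was 2.13-fold and the nerve marker Nefl 1.55-fold higher, and the 5 measured nerve markers had a median log2 ratio of 0.37. No listed marker with a probe set was at 0. In the control probe sets for RNA length, the 3′ over 5′ signal of beta-actin was 1.61 for the wild type against 2.01 for the knockout, while Gapdh gave 1.01 and 0.867. The part of these differences in the ratios above was not tested. In bulk RNA, fewer cells of a type and less RNA per cell cannot be told apart.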

How the data were processed

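Per the labels, biotin-labelled cRNA of neonatal islets was hybridised to 1 array for wild type and 1 for PERK knockout. The authors deposited a linear signal intensity for each of 22690 probe sets. GCOS 1.02 is the tool in the submitters' processing notes, with neither background correction nor detection calls stated in the sources. Both columns had a 2% trimmed mean of 150.1. From these values (Python 3.11.15, pandas 2.3.3) the knockout array was scaled to the trimmed mean of the other (factor 1.00), signals under the floor were raised to 39.8, and ratios of knockout over wild type were put on the log2 scale. Genes above the floor on 1 array have a bound. The platform annotation gave 20380 probe sets 1 symbol, 691 several and 1555 none, and 64 were controls. All 45 members matched a RefSeq gene (GRCm38.p6).

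Members and lists were chosen with earlier results of these data known. Named were all measured members of eIF2, eIF2B, eEF1 and eEF2, the extremes of other groups, bounds, members at the floor, and related genes at least 1.5-fold apart with Eif2ak3, Eif2s3x, Eif2s3y and Eif4ebp1. All further members were named with values in view. Recovery of known ratios was tested on simulated data. With 1 array per genotype no test was made, and the number of arrays limits the precision. The 10 alternatives were no scaling, quantile normalisation, loess, median centring, a floor at the 60th or the 25th percentile, a pseudocount of 32, and 3 other choices of probe set.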

Additional observations from a re-analysis of the deposited data

How the results depend on the processing

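In all 10 alternatives the number of measured translation factors at least 1.5-fold apart was 0 in both directions. The count below equality was 17 of 42, and 7 of 21 on the second brightest measured probe set, where only genes with at least 2 measured probe sets enter. It was between 15 and 24 in the others. The median of the family lay between -0.01 and 0.06, and its sign turned with median centring, quantile and loess normalisation. Of the 42 factors 28 kept their sign in every setting that could read them, 17 higher and 11 lower. In 395 comparisons of a factor with an alternative, 4 moved by more than the probe set SD, in Eef1akmt1, Eif2d and Eif4e3. Many of these comparisons could not move. Leaving out the scaling or changing the floor left the ratio of a measured factor practically as it was. For a factor with 1 measured probe set, the other choices of probe set gave the same value or none. The counts of factors that moved or kept their sign thus rest on the remaining comparisons, as do the ranges over settings given above. No paired analysis was possible because each genotype had 1 array. Signals near the floor, such as those of Eif5b and Eef2k, give only coarse ratios.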

Other observations

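A further 6 probe sets are paired by the annotation with several genes, at least 1 of them a translation factor, and entered no comparison. Of these, 5 were measured, with log2 ratios of knockout over wild type between -0.44 and 0.08, and 0 of them were at least 1.5-fold apart.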
